A study of Mus musculus with 7 samples.

Results

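The genes described here are the keratin genes of the mouse, defined as every autosomal protein-coding gene of the mm9 (NCBIM37) annotation whose symbol begins with Krt and a digit. The rule found 51 genes among 21418 autosomal protein-coding genes, 27 of them on chromosome 11 and 24 on chromosome 15. Krt72-ps, annotated as protein-coding in this release although its name marks a pseudogene, matched the rule and was kept. Binding of CTCF and of the cohesin subunit Rad21 was measured by ChIP-seq in liver nuclei of male CD1 mice (Crl:CD1(ICR)), 8 weeks old and given no treatment that the labels name. There were 4 CTCF and 3 Rad21 libraries. The peak lists used here are pooled over the libraries of each factor, so they give no value per liver and no spread between livers, and all animals were of the same sex and strain. The CTCF list held 76683 peaks and the Rad21 list 67369. A further list put 52436 of the CTCF peaks into 4 classes. TAD anchors lie near boundaries of topologically associating domains (TADs), intra-TAD anchors are ends of loops predicted inside TADs, other CAC sites are the remaining cohesin-and-CTCF sites, and lone CTCF sites are those without cohesin in the study's definition. Motif strand and peak score took part in choosing the anchors, so both are given below as descriptions of anchors only.

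Keratins are the intermediate filament proteins of epithelial cells. A type I keratin pairs with a type II keratin to build each filament, and the genes of each type sit in a cluster of their own, with Krt18, a type I gene, placed at the end of the type II cluster. Hepatocytes carry filaments of Krt8 and Krt18, bile duct cells add Krt7 and Krt19, and most of the remaining keratins serve skin, mouth, oesophagus, cornea, hair and nails. CTCF binds a directional DNA motif and halts the cohesin ring as it extrudes a loop, and loops that have been mapped tend to join motifs that point toward each other. The rule takes Krt8 and Krt18 as active in liver and the rest of both clusters as silent. The files hold no expression values, so activity itself and the liver's cell types were not checked here. Whole liver was used, so binding in a small share of the cells and weak binding in all cells cannot be told apart.

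The sequences of the CTCF motif at the anchors around Krt8 and Krt18, the only keratin genes that the rule takes as active, are shown first because the order and strand of these sites carry the description of that locus. Each is written in the direction of the motif, and capitals mark the 8 of 19 positions where the CTCF matrix MA0139.1 gives a single base a probability of at least 0.8.
Intra-TAD anchor in the window of Krt78, strand −, chr15:101801170-101801188: ctaCCTgcAGggGGAgtcg
TAD anchor between Krt78 and Krt8, strand −, chr15:101804261-101804279: tgcCCTgtAGggGTCgccc
TAD anchor downstream of Krt8, strand +, chr15:101818712-101818730: tgtCCAccAGgaGGCgccg
Intra-TAD anchor at the Krt8 start, strand +, chr15:101834826-101834844: tagACActAGagGGCaggg
Intra-TAD anchor between Krt8 and Krt18, strand −, chr15:101848693-101848711: tggCCAcaAGggGGTgctg
TAD anchor beyond Krt18, strand −, chr15:101896249-101896267: aggCCAccAGggGGCagag
From left to right, the motif strands of these anchors were − and − before the genes. They were + and + up to the Krt8 start, then − and − across Krt18. Sites of other classes did not keep this order, and the lone CTCF site at the Krt18 start had a + motif. The study deposited a motif score and strand without a position, and the positions above were found by rescoring each site with the same matrix on NCBIM37. On chromosomes 11 and 15 the best match had the deposited score within 0.15 and the deposited strand at 5069 of 5070 sites.

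Across all 51 keratin genes, a smaller share of windows held CTCF or Rad21 peaks than around protein-coding genes in general, and with windows of equal size the difference was small for CTCF. A window ran from 20 kb before to 20 kb after the gene span. It held a CTCF peak at 36 of 51 keratin genes, where 84.1% of autosomal protein-coding genes had one. A Rad21 peak was present at 31 of 51 against 81.4%, and a co-bound peak, a CTCF peak sharing at least 1 bp with a Rad21 peak, likewise at 31 against 80.6%. A TAD or intra-TAD anchor lay in 19 of the 51 windows against 51.6%. No peak of either factor was listed in the windows of 15 keratin genes, while 15.4% of all genes had such an empty window. Keratin genes are short, and their windows had a median length of 47.0 kb against 55.5 kb over all genes. With windows of equal size, 25 kb on each side of the outermost start, 39 of 51 keratin genes had a CTCF peak against 82.3% of all genes, and 31 had a Rad21 peak against 78.7%. Neighbouring keratin genes share peaks, so these counts describe the clusters and no test was made over genes.

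Few keratin genes had peaks at their starts or inside the gene span. A CTCF or Rad21 summit lay within 1 kb of an annotated start at 6 of 51 keratin genes, whereas 58.3% of all genes had one. A CTCF peak overlapped the gene span of 14 of 51 keratin genes, where 67.1% of all genes had one. Keratin gene spans are on the whole shorter than those of other genes, as the window lengths show, and overlap with the span was not compared at equal length. Strength is given as fragments of the pooled libraries at the summit, recovered from the deposited fold enrichment and p-value. These gene spans held 18 CTCF peaks, among them the anchor in Krt28, a keratin of the inner root sheath, with 254 fragments and the anchor at the Krt8 start with 346, and the other 16 had 21 to 86 fragments. The median distance from a start to the nearest CTCF summit was 10545 bp over the keratin genes and 429 bp over all autosomal protein-coding genes. For Rad21 these medians were 16929 bp and 525 bp. The 6 starts with a summit nearby were those of Krt8 and Krt18, of Krt23, which is found in simple epithelia, of Krt78, of Krt222 and of Krt72-ps.

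**Figure D1:**
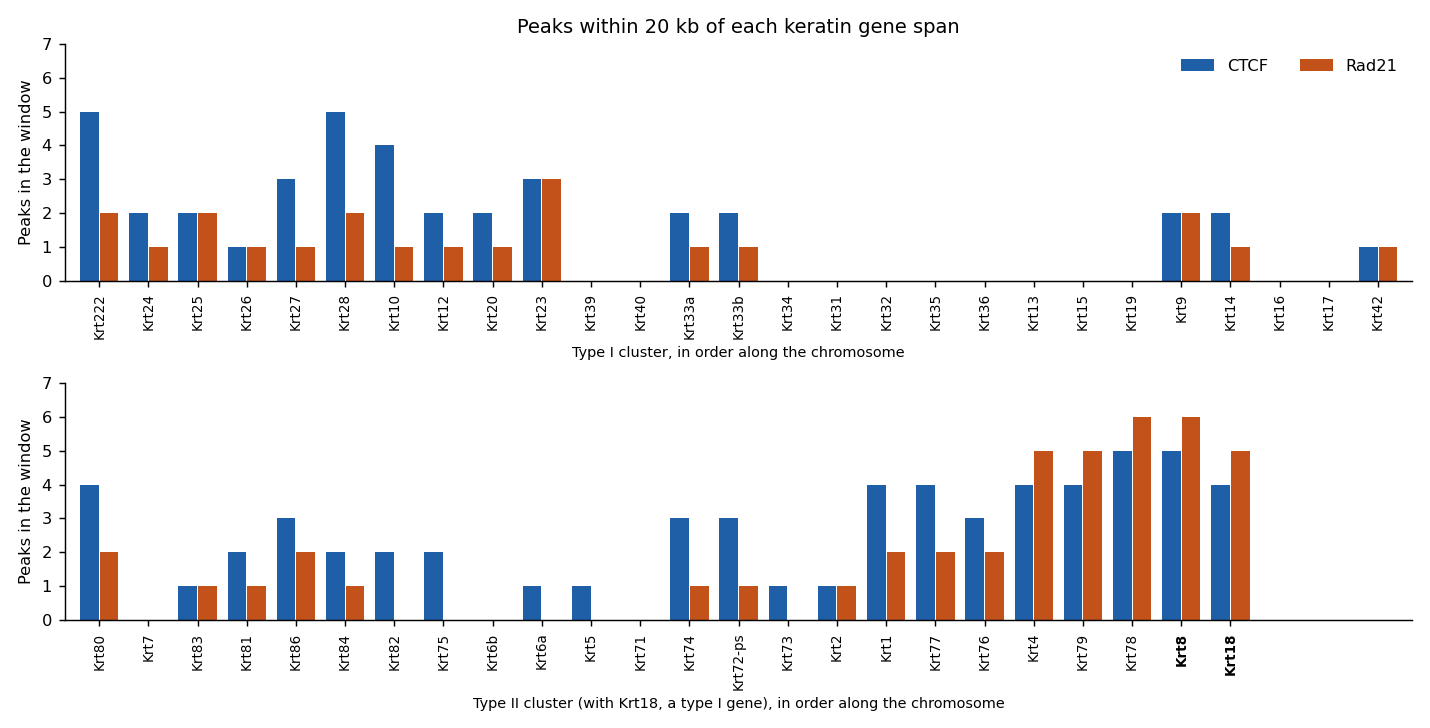
Number of CTCF peaks (blue bars) and Rad21 peaks (orange bars) within 20 kb of each keratin gene span, with the genes in their order along the type I cluster (top) and the type II cluster (bottom). Each bar is a count from a pooled list, so there are no error bars. Runs of genes without a bar stand in the second block of the type I cluster, and the Rad21 counts are highest, at 5 or 6, from Krt4 to Krt18.

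The keratin genes form 3 blocks, of which the second type I block had the smallest share of bound windows. The first type I block holds 12 genes from Krt222 to Krt40, the second holds 15 genes from Krt33a to Krt42, and the type II block on chromosome 15 holds 24 genes from Krt80 to Krt18. A CTCF peak was present in the windows of 10 of 12, 5 of 15 and 21 of 24 genes, and a Rad21 peak in 10 of 12, 5 of 15 and 16 of 24. Beside the 84.1% and 81.4% of all genes, the first type I block was near the background for both factors and the type II block for CTCF. The merged windows of the first type I block held 5.42 CTCF peaks per 100 kb (exact Poisson 95% interval 3.26 to 8.47), those of the second 2.01 (0.737 to 4.37) and those of the type II block 5.35 (3.73 to 7.44). The autosomes over their whole length, and not in gene windows alone, held 3.03. Intervals here and below cover counting error only. For Rad21 the densities per 100 kb were 3.14 (1.57 to 5.62), 1.34 (0.365 to 3.43) and 3.98 (2.60 to 5.82), beside 2.67 on the autosomes. The second type I block had the lowest values for both factors, with intervals that overlapped those of both other blocks.

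By role, the keratins of the hair shaft had the smallest share of bound windows for both factors. The shares over all autosomal protein-coding genes were, as above, 84.1% for CTCF, 81.4% for Rad21 and 58.3% for a summit within 1 kb of a start. Of 14 hair shaft genes, 7 had a CTCF peak and 6 a Rad21 peak, and none had a summit within 1 kb of a start. Of 20 genes of stratified epithelia such as epidermis, 15 had a CTCF peak and 13 a Rad21 peak. Of 8 genes of the inner root sheath and companion layer of the hair follicle, 7 had a CTCF peak and 5 a Rad21 peak. All 3 genes in none of these roles, Krt222, Krt42 and Krt72-ps, had peaks of both factors. Of the 6 keratins of simple epithelia, Krt8, Krt18, Krt20 and Krt23 had peaks of both factors, and Krt7 and Krt19, the bile duct keratins, had no listed peak in their windows. The nearest CTCF summit to Krt19 lay 20.6 kb from its outermost start, just outside the window. Role and position go together in these clusters, since 7 of the 14 hair shaft genes lie in the second type I block.

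**Figure D2:**
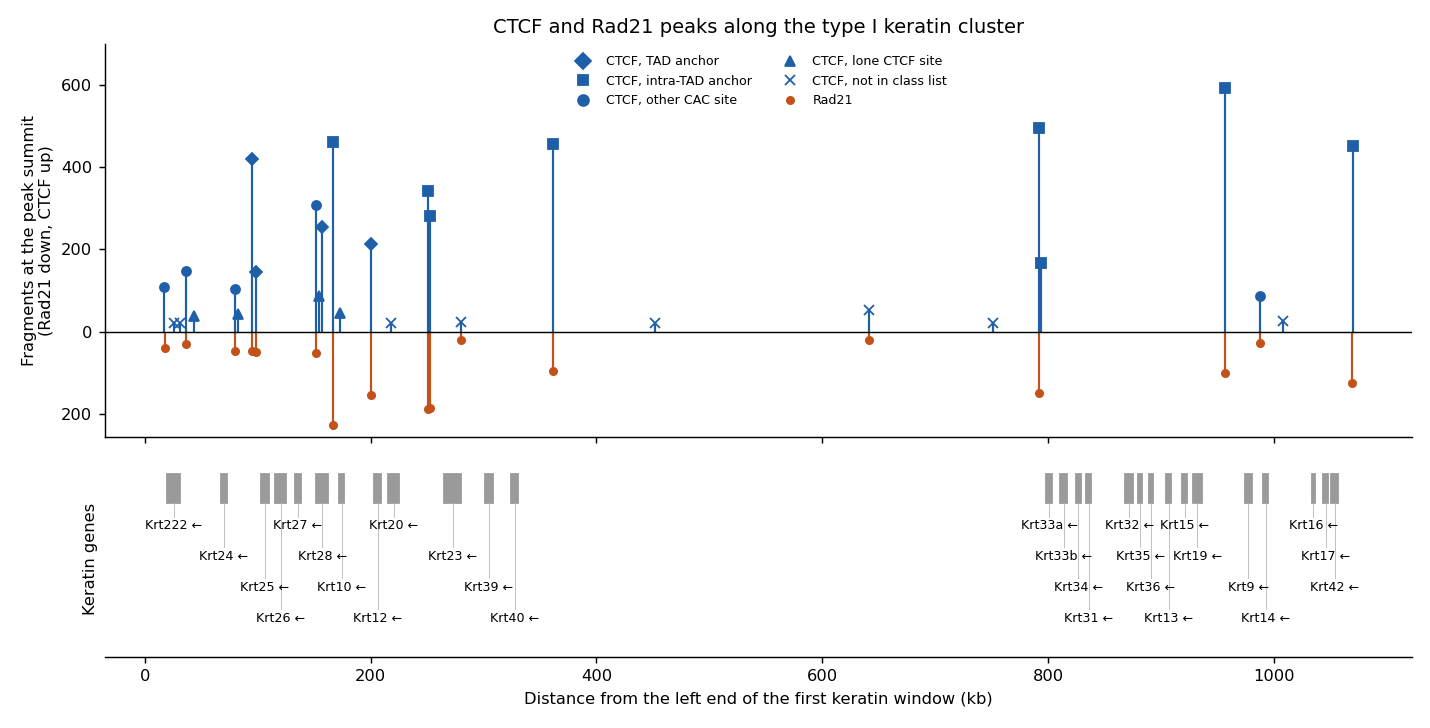
CTCF peaks (blue, upward) and Rad21 peaks (orange, downward) along the type I keratin cluster, drawn at their summits with height in fragments of the pooled libraries, against distance in kb from the left end of the first keratin window. Marker shape gives the class of a CTCF peak and grey boxes are keratin genes with the direction of transcription. Between the anchors near Krt33a and the anchor before Krt9 no peak is drawn over 10 keratin genes.

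In the type I cluster the first block carried a series of sites and the second block lay mostly between sites. Over all autosomal peaks the median was 69.0 fragments for CTCF and 47.0 for Rad21. In the first block the strongest CTCF peak was the intra-TAD anchor between Krt28 and Krt10, a keratin of the upper epidermis, with 461 CTCF and 228 Rad21 fragments and its motif on the + strand. Next came the TAD anchor to the left of Krt25, a keratin of the inner root sheath, with 421 CTCF but 46 Rad21 fragments. That ratio of 0.109 stood at the 1.63 percentile of all autosomal co-bound pairs and at the 3.50 percentile of pairs of like CTCF strength, those whose CTCF fragments were within a factor of 1.25 of its own, and was the lowest of the 37 pairs in keratin windows. A TAD anchor inside an intron of Krt28 had 254 CTCF fragments and no listed Rad21 peak. The 7 anchors of the first block ranged from 145 to 461 CTCF fragments, and 6 of the 7 overlapped a Rad21 peak.

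The longest stretch without any listed peak within the keratin blocks ran for 162 kb, at chr11:99868298-100030251. It contained 10 whole genes, namely the hair keratins Krt33a, Krt33b, Krt34, Krt31, Krt32, Krt35 and Krt36, then Krt13, a keratin of the mouth and oesophagus, Krt15, which is found in basal epidermal cells, and Krt19. Between neighbouring peaks on the autosomes the median peak-free length was 8.34 kb and the 90th percentile 50.5 kb. The next longest stretches in the keratin blocks measured 71.3 kb around Krt6b and Krt6a, 67.8 kb around Krt5, Krt71 and Krt74, and 65.9 kb around Krt7 and Krt83. Only uniquely mapped reads entered the lists, and near-identical genes can lose reads in that step. Of the 32-base words in the 162 kb stretch, 4.01% occurred again on chromosome 11 or 15, compared with 5.30% in the windows of the first type I block, and the stretch held 0 undetermined bases. Within its genes the share was 15.2% in Krt33a, 12.9% in Krt33b, 18.7% in Krt34 and 19.2% in Krt31, and 3.51% or less in the others. The share was 20.5% in the stretch of Krt6b and Krt6a, and reached 48.9% within Krt6b and 43.9% within Krt6a. The part of repeated sequence in the absence of peaks was not tested.

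The 162 kb stretch was bounded by anchors whose motifs pointed away from it. On its left stood intra-TAD anchors with 496 and 166 CTCF fragments, both with the motif on the − strand, and only the stronger overlapped a Rad21 peak, of 150 fragments. On its right, between Krt19 and Krt9, the palm and sole keratin, stood the strongest CTCF peak of the type I windows, an intra-TAD anchor with 593 CTCF and 100 Rad21 fragments and a + motif. This right-hand anchor and the one beyond Krt42, with 452 CTCF fragments and a − motif, pointed toward each other across Krt9, Krt14, Krt16, Krt17 and Krt42. The ratio of Rad21 to CTCF fragments at the 4 co-bound pairs of the second block was between 0.169 and 0.314, where the median was 0.564 over all autosomal pairs and 0.423 over autosomal anchors. Among pairs of like CTCF strength the 4 stood between the 10.96 and 38.6 percentiles. These motifs at the bounds of the stretch and beyond Krt42 are shown in the order in which they lie.
Left bound, first site, strand −, chr11:99866295-99866313: cgaACActAGagGCCgcca
Left bound, second site, strand −, chr11:99868130-99868148: aggCCTccAGagGGCgatg
Right bound before Krt9, strand +, chr11:100030879-100030897: tgtCCAcaAGggGGCgctg
Beyond Krt42, strand −, chr11:100143493-100143511: ttaCCAgcAGatGGTgctc
The right-bound motif lay within a broad peak at chr11:100030318-100031099. Its match kept all 8 of the marked positions, while that of the first left-bound site kept 6.

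Between both type I blocks lie 468 kb that hold 22 genes of keratin-associated proteins, the matrix proteins of the hair shaft. This span held 6 CTCF and 3 Rad21 peaks, or 1.28 (0.470 to 2.79) and 0.641 (0.132 to 1.87) per 100 kb. The CTCF and Rad21 peaks at the left bound of the 162 kb stretch are among them and were also counted in the second type I block. No peak was listed between those ending at chr11:99525697 and beginning at chr11:99715416. This empty stretch is longer than that of 162 kb and lies outside the blocks. A CTCF peak lay in the windows of 11 of the 22 genes and a Rad21 peak in 8, and no gene had a summit within 1 kb of a start. Over all 46 autosomal keratin-associated protein genes the counts were 22 and 19. All 14 intermediate filament genes outside the keratins that were examined, among them Vim, Des and Lmna, had a CTCF and a Rad21 peak in the window, and 10 had a summit within 1 kb of a start. So did 8 of 9 genes of proteins that tie keratin filaments to cell junctions, such as Dsp and Plec, and all 9 had peaks of both factors in the window. Over all genes the shares were 84.1% for CTCF and 81.4% for Rad21 in the window and 58.3% for a summit near a start. Median windows were 52.1 kb for the filament genes and 87.25 kb for the linker genes, longer than the 47.0 kb of the keratin genes, and 40.9 kb for the 46 keratin-associated protein genes.

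**Figure D3:**
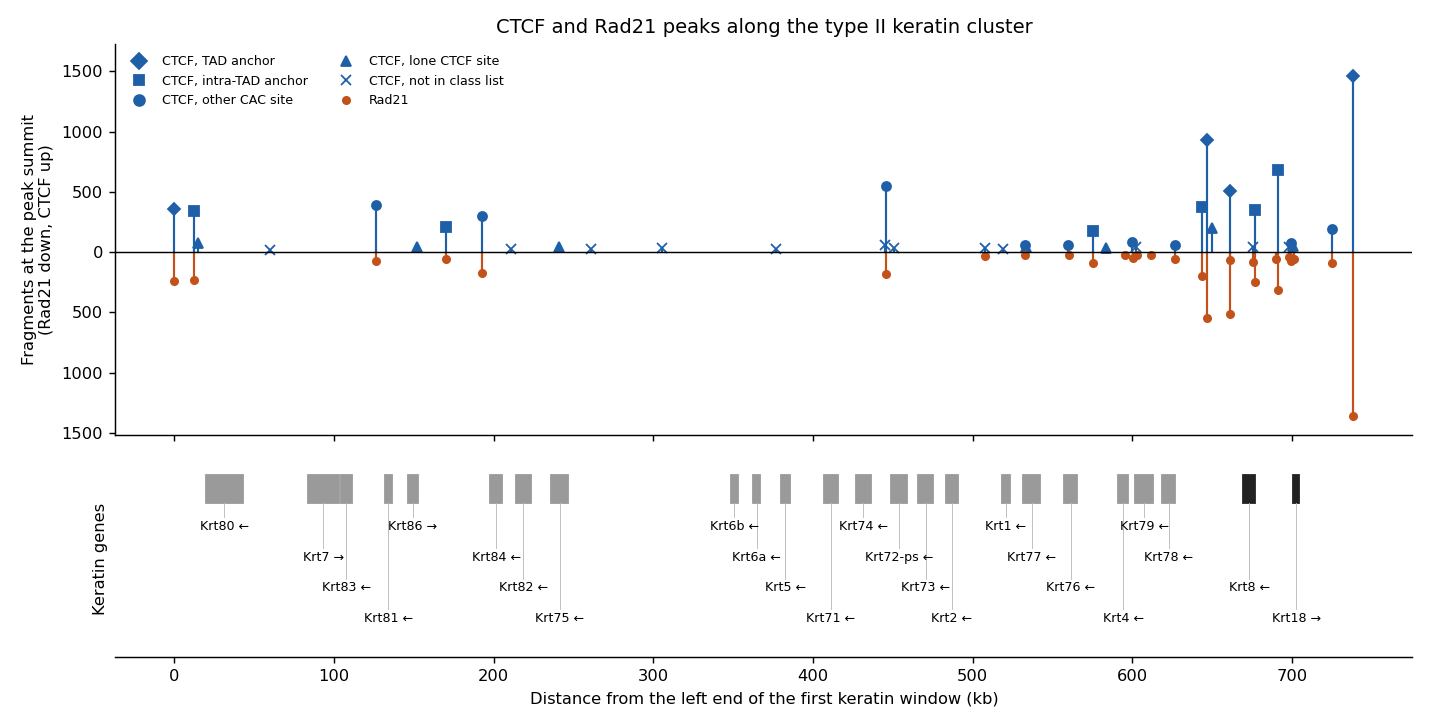
CTCF peaks (blue, upward) and Rad21 peaks (orange, downward) along the type II keratin cluster, with height in fragments at the summit against distance in kb from the left end of the first keratin window. Marker shape gives the class of a CTCF peak, black boxes are Krt8 and Krt18, and grey boxes are the other keratin genes. The tallest peaks stand from Krt78 to the right end, where a TAD anchor beyond Krt18 reaches 1463 CTCF and 1355 Rad21 fragments.

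The type II block had anchors at its left end, a long middle without any, and the strongest sites at its right end around Krt8 and Krt18. At the left, a TAD anchor and an intra-TAD anchor lay beside Krt80, with 360 and 343 CTCF fragments, 236 and 232 Rad21 fragments, and both motifs on the + strand. An intra-TAD anchor beyond Krt86, a hair keratin, had 211 CTCF and 57 Rad21 fragments and a − motif. From that site to the next anchor near Krt76, with a + motif and 175 CTCF fragments, 405 kb passed without an anchor. This interval held 14 genes, from Krt84 to Krt76, that have a − anchor on the left and a + anchor on the right. Its strongest sites were other CAC sites. Beside Krt72-ps one had 547 CTCF and 181 Rad21 fragments and no scored motif, and beside Krt84, a hair keratin, another had 300 and 175 fragments and a + motif.

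Anchors whose motifs point toward each other enclosed 23 of the 51 keratin genes, where 32.2% of all genes lay between a + anchor on the left and a − anchor on the right. Anchors pointing away stood on both sides of 24 keratin genes, and 27.4% of all genes lay so. The remaining arrangements, with both nearest motifs on the same strand, were found for Krt28, Krt10 and Krt8 (+ and +) and for Krt18 (− and −). Over all genes they accounted for 19.5% and 19.3%. Genes that lie between the same anchors are counted separately here. Only anchors outside the gene span were used, so the anchor with a − motif in the Krt28 intron was left out.

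Krt8 and Krt18 had more Rad21 peaks than most other keratin genes, and both had sites at their starts. Krt8 had 5 CTCF peaks, 6 Rad21 peaks, 4 co-bound peaks and 3 anchors in its window. Krt18 had 4 CTCF peaks, 5 Rad21 peaks, 4 co-bound peaks and 1 anchor. Other keratin genes had medians of 2 CTCF and 1 Rad21 peaks, with ranges of 0 to 5 and 0 to 6. The nearest other member, Krt78, a keratin of stratified epithelia, had 5 CTCF and 6 Rad21 peaks and 2 anchors, so the high counts extended to the neighbour, and Krt4 and Krt79 each had 4 CTCF and 5 Rad21 peaks. In the type I cluster Krt222 and Krt28 also had 5 CTCF peaks, with 2 Rad21 peaks each. Over all genes the medians were 4 CTCF and 3 Rad21 peaks, so Krt8 and Krt18 were at or just above the median gene in CTCF and above it in Rad21.

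The merged window of Krt8 and Krt18, 75.3 kb long, held 8 CTCF peaks or 10.6 per 100 kb (exact Poisson 95% interval 4.59 to 20.9). The windows of the other keratin genes, 1228 kb in all, held 52 CTCF peaks or 4.24 per 100 kb (3.16 to 5.55). The ratio of these densities was 2.51, with an exact interval of 1.03 to 5.32. For Rad21, 9 peaks or 11.9 per 100 kb (5.46 to 22.7) compared with 32 peaks or 2.61 (1.78 to 3.68), a ratio of 4.59 with an interval of 1.92 to 9.83. The density of the other keratin windows was 1.40 times that of the autosomes for CTCF and 0.975 times for Rad21. The autosomal density covers the whole length of the autosomes and not gene windows. By gene window, 34 of 49 other keratin genes (69.4%) had a CTCF peak, against 84.1% of all genes. A Rad21 peak was present at 29 of 49 (59.2%), against 81.4%. Of the 8 CTCF peaks at Krt8 and Krt18, 7 overlapped a Rad21 peak (87.5%, Wilson 95% interval 52.9 to 97.8), and of the 52 others 30 did (57.7%, 44.2 to 70.1), with overlapping intervals. Rad21 peaks without CTCF numbered 2 of 9 at Krt8 and Krt18 and 2 of 32 in the other windows, beside 15118 of 66091 on the autosomes. Of the 2 at Krt8 and Krt18, one at chr15:101819118-101819324 lies close to the Rad21 peak of the TAD anchor downstream of Krt8, which ends at 101819017. It had 69 fragments over a background of 34.8. Whether it is a site of its own was not tested. The background that the peak caller estimated around each summit was also higher at Krt8 and Krt18. Its median was 16.5 fragments for CTCF and 18.7 for Rad21, against 8.72 and 7.16 in the other windows. Its part in the difference was not tested.

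**Figure D4:**
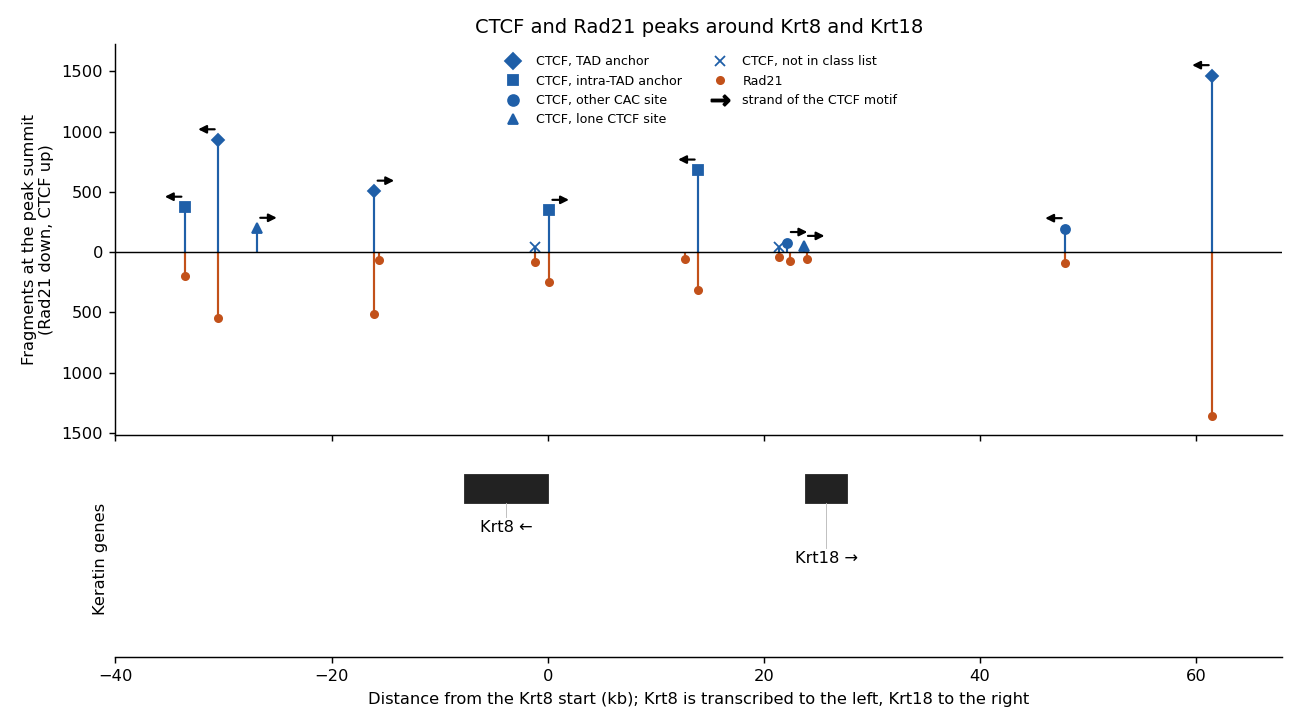
CTCF peaks (blue, upward) and Rad21 peaks (orange, downward) around Krt8 and Krt18, with height in fragments at the summit against distance in kb from the Krt8 start. Black arrows give the strand of the CTCF motif and black boxes the genes. The anchors left of and at the Krt8 start nearest the gene have + motifs, and those farther left, between the genes and beyond Krt18 have − motifs.

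Krt8 and Krt18 are transcribed away from each other, and their starts lie 23874 bp apart. From left to right, an intra-TAD anchor with 372 CTCF and 197 Rad21 fragments and a TAD anchor with 931 and 546 stood between Krt78 and Krt8. The TAD anchor at chr15:101804048-101804586 was the strongest CTCF peak in any keratin window and fell in that of Krt78, just outside that of Krt8. The TAD anchor downstream of Krt8 had 505 CTCF and 510 Rad21 fragments, and its ratio of 1.01 stood at the 80.8 percentile of all autosomal pairs and at the 96.6 percentile of the 4894 pairs of like CTCF strength. The anchor at the Krt8 start had 346 CTCF and 245 Rad21 fragments, and the anchor between the genes 680 and 312. Beyond Krt18, an other CAC site with 194 and 89 fragments lay just outside the window, and the TAD anchor at chr15:101896034-101896573 had 1463 CTCF and 1355 Rad21 fragments. That Rad21 peak ranked 1 among all 67369 by deposited score, which is 10 times −log10 of the q-value, the CTCF peak ranked 149 among 76683, and their ratio of 0.926 stood at the 76.8 percentile of all autosomal pairs and at the 99.7 percentile of 342 pairs of like CTCF strength. It lies 33.8 kb beyond the end of Krt18 and 7.92 kb before Eif4b, which encodes a translation initiation factor.

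The start of Krt8 coincided with an anchor. The summit of the intra-TAD anchor lay 107 bp upstream of the annotated start, and the near end of its motif 53 bp upstream, on the + strand and thus against the direction of Krt8. At the Krt18 start the sites were weaker. A lone CTCF site with 47 CTCF fragments had its summit 120 bp upstream, overlapped a Rad21 peak of 58 fragments despite its class, and had a motif that began 58 bp upstream on the + strand, the direction of Krt18. Further sites stood 1707 bp upstream of Krt18, with 79 CTCF and 72 Rad21 fragments, and 2471 bp upstream, with 39 of each. The 250 bases upstream of each start are shown from the + strand of NCBIM37 because they hold these motifs, which capitals mark whole.
Krt8, chr15:101834774-101835023: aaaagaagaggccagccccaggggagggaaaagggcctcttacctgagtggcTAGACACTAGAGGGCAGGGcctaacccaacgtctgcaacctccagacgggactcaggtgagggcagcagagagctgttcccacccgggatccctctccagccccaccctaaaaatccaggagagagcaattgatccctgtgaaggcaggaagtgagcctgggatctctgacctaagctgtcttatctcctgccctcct
Krt18, chr15:101858397-101858646: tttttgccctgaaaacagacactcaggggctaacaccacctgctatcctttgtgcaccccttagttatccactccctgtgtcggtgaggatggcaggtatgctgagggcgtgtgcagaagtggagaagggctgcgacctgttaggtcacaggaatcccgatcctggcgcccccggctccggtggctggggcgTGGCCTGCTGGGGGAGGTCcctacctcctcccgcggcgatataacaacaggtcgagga
Among 2450 protein-coding genes on chromosomes 11 and 15, the 250 bases upstream of their outermost start held a match to the matrix MA0139.1 on either strand scoring at least as high as that of Krt18 at 115, or 4.69%, and as high as that of Krt8 at 53, or 2.16%. Among the 51 keratin starts, Krt8 and Krt18 alone reached the Krt18 score. The motif at the Krt18 start kept 5 of the 8 marked positions and that at the Krt8 start 7.

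The other keratin starts with a summit within 1 kb had CTCF peaks below the autosomal median, as did the Krt18 start. At Krt222 a CTCF peak of 21 fragments lay 51 bp upstream of the outermost start, and another of 22 fragments lay 165 bp downstream of a different annotated start inside the gene, with no Rad21 peak at either. At Krt23 a CTCF peak of 23 and a Rad21 peak of 21 fragments lay 132 and 42 bp upstream. At Krt72-ps the summit of a CTCF peak of 32 fragments lay 406 bp downstream of an annotated start inside the gene, not of the outermost one. At Krt78 a co-bound site with a − motif had 59 CTCF and 61 Rad21 fragments, 268 and 338 bp downstream. These values exceeded the 47 CTCF and 58 Rad21 fragments at the Krt18 start. Both Rad21 values were above the autosomal Rad21 median of 47.0. A CTCF peak of 21 fragments, as at Krt222, stood over the genome-wide background of 5.99 and had a score of 43. All CTCF peaks at the starts of Krt222, Krt23, Krt72-ps and Krt78 were below the autosomal median of 69.0 fragments. Of the 6 starts, the Krt8 start alone had an anchor and more than 100 fragments.

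**Figure D5:**
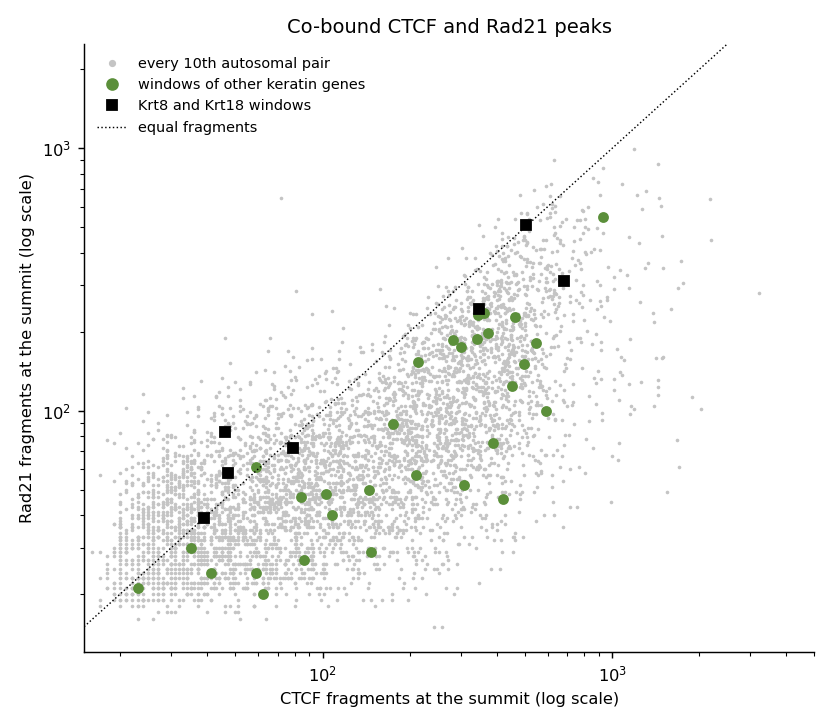
Rad21 fragments against CTCF fragments at co-bound peaks, on log scales, for the Krt8 and Krt18 windows (black squares), the windows of the other keratin genes (green circles) and every 10th autosomal pair (grey points). The dotted line marks equal fragments. The 7 black squares lie on the whole closer to the line than the green circles.

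At co-bound sites the amount of Rad21 relative to CTCF also differed within the clusters. The ratio of Rad21 to CTCF fragments had a median of 1.0 over the 7 pairs at Krt8 and Krt18 (range 0.459 to 1.80), 0.480 over the 30 pairs in the other keratin windows (0.109 to 1.03) and 0.564 over 50555 autosomal pairs. It exceeded the autosomal median in 6 of 7 and in 10 of 30 pairs. Of the 7 pairs at Krt8 and Krt18, 4 had 39 to 79 CTCF fragments, where the median of all autosomal CTCF peaks was 69.0. The ratios of the 7 pairs stood between the 38.5 and 95.7 percentiles of all autosomal pairs. Among pairs of like CTCF strength they stood between the 53.1 and 96.6 percentiles. The 30 pairs in the other windows stood between the 2.63 and 88.3 percentiles of pairs of like CTCF strength. Over anchors alone the ratio was 0.459, 0.708 and 1.01 at the 3 anchors of Krt8 and Krt18. Its median was 0.509 over 15 anchors in the other windows and 0.423 over 13973 autosomal anchors. All ranges overlapped. CTCF and Rad21 were measured in separate libraries of unlike number, so the ratio compares sites with each other and has no meaning as an absolute amount. The study describes most of the libraries as matched by liver. The library labels name no animal for both factors, so the match could not be checked.

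By class, 20 of the 60 CTCF peaks in keratin windows were TAD or intra-TAD anchors (33.3%). The share was 19.6% over all autosomal CTCF peaks, inside and outside gene windows. Other CAC sites made up 13 of 60 (21.7%) against 35.02%, lone CTCF sites 11 (18.3%) against 13.7%, and 16 (26.67%) were in no class against 31.7%. The 20 anchors comprised 7 TAD anchors and 13 intra-TAD anchors, of which 18 overlapped a pooled Rad21 peak. All 3 anchors in the Krt8 and Krt18 window carried the flag taken as overlap with Top2b, a topoisomerase found at loop anchors, as did 12 of the 17 anchors in the other keratin windows and 11036 of 14700 autosomal anchors. The class list has no column names, and the identity of this flag rests on the order of columns in the study's description of the table.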

How the data were processed

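Per the labels and the study's methods, the authors pooled the reads of 4 CTCF and 3 Rad21 libraries, mapped them to mm9 with Bowtie2, kept uniquely mapped reads, called peaks with MACS2, and removed blacklisted regions. The deposited lists give a score (10 times −log10 of the q-value), the fold enrichment as a ratio with a pseudocount of 1, and the −log10 p-value at the summit. The authors' class list holds CTCF peaks found in at least 2 livers, with a motif score and overlap flags, whose names come from the study's description of the table.

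From fold and −log10 p, the fragments and local background at each summit were recovered as those of a Poisson model and came out whole (within 0.05) at 99.996% of CTCF and 99.997% of Rad21 peaks. The recovery was tested on simulated data. Peaks were assigned to gene windows by at least 1 bp with Python 3.11.15, NumPy 2.4.6, pandas 2.3.3, SciPy 1.17.1, pysam 0.24.0 and samtools 1.23.1, on GENCODE vM1 genes. No test was made, because pooled lists give no replicate spread and genes of a cluster share peaks. Shares carry Wilson and densities exact Poisson 95% intervals, and ratios of densities an exact conditional interval. Blocks were split where neighbouring members lay over 200 kb apart. Genes were named by a written rule: Krt8, Krt18 and their neighbours, the ends of each run, members with a peak in the gene or a summit within 1 kb of a start, the 3 members with the most peaks, members with an empty window, and non-members beside the strongest peaks. Other keratin genes named as landmarks were chosen after their values were seen. Repeated 32-base words were counted after the peak-free stretches had been seen. Members and lists were chosen with earlier results of these data known. Alternatives varied the window, score minimum, overlap rule and start distance. The depth of each library is not given in the files.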

Additional observations from a re-analysis of the deposited data

How the results depend on the processing

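Of 52 alternative values for 10 results, 41 stayed within 1.5 times the reported count or inside the interval of the reported share or ratio, 11 moved beyond it, and 0 reversed. All 11 came from a change of the window. With the gene span alone, 14 keratin genes had a CTCF peak, 8 a Rad21 peak, 6 a co-bound peak and 2 an anchor; the windows then held 18 CTCF and 10 Rad21 peaks, of which 38.9% of the CTCF peaks overlapped Rad21, and the density ratios of Krt8 and Krt18 over the other genes were 6.504 for CTCF and 13.9 for Rad21, from 3 peaks each. With 10 kb and 50 kb on each side, 9 and 36 keratin genes had an anchor. A smaller or larger window covers less or more sequence by construction. A score minimum of 100 left 4 of the 6 genes with a summit near a start. Leaving out Krt7, Krt19, Krt20 and Krt23, simple-epithelial keratins, from the silent genes gave density ratios of 2.48 and 4.72.

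No paired analysis was possible because the peak lists are pooled over libraries and hold no value per library, and for the same reason no library was left out in turn. The weakest autosomal peaks had 16 CTCF and 15 Rad21 fragments, and a window without a listed peak shows only that nothing passed the calling threshold at the pooled depth, which the files do not give.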
